A study of Arabidopsis thaliana with 12 samples.

Results

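Small RNA of Arabidopsis thaliana seedlings was compared between a medium without nitrogen and the complete medium in one genotype, the mutant dcl4-2. The groups were dcl4-2 on MS-N, which is Murashige and Skoog medium lacking nitrogen, and dcl4-2 on MS, the complete medium. Each group had 3 biological replicates, so 6 of the 12 libraries of the study were compared, chosen by their genotype and medium labels. All seedlings were 10 days old and were taken whole, so both groups carried the same dcl4-2 allele and differed in the medium. The other 6 libraries, Col-0 wild type on MS-N and on MS, entered the fits and were used to test where the response in dcl4-2 differed. Small RNA of both lengths, 21 nt and 22 nt, was measured for 14 feature classes per library and at 32420 gene loci.

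DICER-LIKE 4 (DCL4) processes long double-stranded RNA to 21-nt small interfering RNAs (siRNAs), among them the trans-acting siRNAs (tasiRNAs), which silence other messenger RNAs. Where DCL4 is missing, the related enzyme DCL2 can take the same substrates and makes 22-nt siRNAs, a length known for starting further siRNA production on the RNAs it targets. MicroRNAs are cut by DCL1 from hairpin precursors and are mostly 21 nt long. Several microRNA families are known to follow the nutrient state of the plant, miR399 and miR827 that of phosphate, miR395 that of sulfate, miR398 that of copper and miR169 that of nitrogen. Reads at a locus measure its small RNA, not its messenger RNA level. In whole seedlings, fewer cells of a type and less RNA per cell cannot be told apart.

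Reads were counted per gene, not per mature form or arm, and the annotated mature sequences show which family a gene belongs to. Sequences of miR399, miR395, miR398 and miR827 come first, because the 8 largest falls of microRNA genes at 21 nt were all genes of miR399 and miR395. Sequences are from the RefSeq annotation of TAIR10.1, written 5′ to 3′, with the seed (bases 2 to 8) in capitals. miR399a lies at chr1:10227165-10227185 on the plus strand, and miR399b at chr1:23345387-23345407 on the minus strand. miR395a lies at chr1:9363206-9363226 on the minus strand, and miR395b at chr1:9364540-9364560 on the plus strand. miR398c-3p lies at chr5:4694778-4694798 on the plus strand and miR827 at chr3:22122811-22122831 on the minus strand.
miR399a: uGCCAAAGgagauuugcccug
miR399b: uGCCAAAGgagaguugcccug
miR395a: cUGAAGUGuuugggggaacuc
miR395b: cUGAAGUGuuuggggggacuc
miR398c-3p: uGUGUUCUcaggucaccccug
miR827: uUAGAUGAccaucaacaaacu
The members of miR399 share 1 seed and those of miR395 share another, while miR398c-3p and miR827 have seeds of their own. The annotation gives the mature miR399c-3p the same letters as miR399b, so reads of these genes could be shared between them.

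The next set belongs to related genes with changes in opposite directions on MS-N, MIR156f against MIR156g at 21 nt and MIR169b against MIR169f at 22 nt, and to other genes that rose. miR156f-5p lies at chr5:9136126-9136145 (plus strand) and miR156g at chr2:8412589-8412608 (minus strand). miR169b-5p lies at chr5:8527511-8527531 (plus strand) and miR169f-5p at chr3:4805799-4805819 (minus strand). miR172e-3p lies at chr5:23988566-23988586 (plus strand), miR842 at chr1:22577194-22577214 (plus strand) and miR845b at chr4:12214086-12214107 (minus strand).
miR156f-5p: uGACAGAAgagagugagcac
miR156g: cGACAGAAgagagugagcac
miR169b-5p: cAGCCAAGgaugacuugccgg
miR169f-5p: uGAGCCAAggaugacuugccg
miR172e-3p: gGAAUCUUgaugaugcugcau
miR842: uCAUGGUCagauccgucaucc
miR845b: uCGCUCUGauaccaaauugaug
miR156f-5p and miR156g share the seed and are annotated with 20 nt, so reads of 21 nt or 22 nt at these genes are longer than the annotated form. miR169b-5p and miR169f-5p share most of their letters in the same order, at shifted positions. Their seeds differ by this shift alone, which is no sign of different targets. Both are annotated with 21 nt, while miR169b-3p, from the other arm of MIR169b, is annotated with 22 nt. Which arm gave the 22-nt reads of MIR169b was not tested, because reads were counted per gene. miR845b is annotated with 22 nt.

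Library totals were 4515437, 5411632 and 5044394 reads in dcl4-2 on MS-N, against 6319663, 6823101 and 7270637 reads in dcl4-2 on MS. These are the smallest totals that turn all 28 class values of a library into whole reads, and multiples of them do so too. By these totals every MS-N library was shallower than every MS library, and the lowest class value in the series rested on 183 reads. Class values are rpm, reads scaled to library size, computed per library by the authors. Locus values are normalized reads, which the authors deposited as group means. Library values were recovered from these means, and libraries 1 to 3 of a locus carry no replicate number. Loci of the chloroplast genome and the nuclear photosynthesis genes RBCS1A and LHCB1.1, which mark green tissue, had reads in both groups. DCL4 itself (AT5G20320) does not check the mutation. It had 4.46, 5.95 and 11.1 normalized 22-nt reads on MS-N and 1.02, 1.03 and 1.07 on MS.

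Summed over 13 classes, leaving out tasiRNA, which overlaps exons, both lengths took a larger part of the libraries on MS-N, and the 21-nt reads gained more. Reads of 21 nt summed to 283658 ± 11747 rpm on MS-N and 163033 ± 11008 rpm on MS (SD, n = 3 each), 1.74-fold higher. Reads of 22 nt summed to 130538 ± 1401 rpm on MS-N and 104747 ± 15826 rpm on MS, 1.25-fold higher. The groups did not overlap at either length, with an exact two-sided permutation p = 0.1 for each, the smallest that 3 against 3 libraries allow. The 22-nt share of these reads was 32.3, 31.4 and 30.9% in the MS-N libraries, against 33.4, 42.2 and 41.5% in the MS libraries. All MS-N values were the lower ones, by 7.51 percentage points in the mean (p = 0.1 in the same exact test). Without microRNA reads the share was 60.4 ± 1.02% on MS-N and 64.1 ± 5.74% on MS, the groups overlapped, and the exact p was 0.4.

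Small RNA from exons and tasiRNA reads rose on MS-N at both lengths. Exon reads of 22 nt were 25500.3, 26313 and 27255 rpm on MS-N, against 11485, 10662 and 10908 rpm on MS, 2.39-fold higher with a log2 change of 1.26 (limma, adjusted p = 6.09e-09). The groups lay far apart, and the same held for exon reads of 21 nt, at 12486 ± 638 rpm on MS-N and 5806 ± 322 rpm on MS. An exon value is a sum over genes and does not show how many genes gained. In the authors' deposited means the gene NIA2 alone held 13.7% of the summed 22-nt gene column on MS-N and 0.0659% on MS. The 22-nt share of exon reads was 67.9 ± 0.429% on MS-N and 65.5 ± 0.383% on MS, with no overlap (exact permutation p = 0.1). The tasiRNA class overlaps the exon class. It held 12530.4 ± 595 rpm of 22-nt reads on MS-N and 5632 ± 97.4 rpm on MS, 2.22-fold higher (limma, adjusted p = 2.08e-07), and 2675 ± 175 rpm of 21-nt reads on MS-N and 1128 ± 147 rpm on MS, 2.37-fold higher (limma, adjusted p = 1.13e-06). Both lengths thus rose side by side, and 22-nt reads were 82.4 ± 0.595% of tasiRNA reads on MS-N and 83.3 ± 1.62% on MS, where the groups overlapped.

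MicroRNA reads, the most abundant class at 21 nt, were 200449, 214431 and 218716 rpm on MS-N, against 118907, 112626 and 103529 rpm on MS (1.89-fold, limma, adjusted p = 5.32e-07). They made up 74.5 ± 0.995% of 21-nt reads on MS-N and 68.5 ± 0.634% on MS. At 22 nt microRNA reads were 1.76-fold higher, with 20301 ± 300 rpm on MS-N and 11509.5 ± 855 rpm on MS. When libraries were scaled to a common sum of 21-nt microRNA reads the 22-nt change was -0.10 on the log2 scale, since this scaling sets the 21-nt change near 0.

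The classes with the largest folds were structural RNAs. Reads of 21 nt from small nucleolar RNAs, guides of rRNA modification, were 1032, 987 and 1108 rpm on MS-N, against 285, 195 and 201 rpm on MS, 4.59-fold higher. At 22 nt the snoRNA class was 4.72-fold higher, with 897 ± 86.8 rpm on MS-N and 190 ± 56.2 rpm on MS. Small nuclear RNAs, components of the spliceosome, were 3.77-fold higher at 21 nt (132 ± 5.73 rpm on MS-N and 35.0 ± 5.31 rpm on MS) and 4.73-fold higher at 22 nt. Each of these 4 rises passed limma with an adjusted p of 2.08e-07 or less. Reads of 21 nt from tRNA rose to 3811 ± 356 rpm on MS-N, against 2592 ± 23.8 rpm on MS, where the change in Col-0 was -0.70 on the log2 scale and the difference between the genotypes was 1.25 (limma interaction, adjusted p = 2.43e-06). This tRNA rise turned to a log2 change of -0.078 when libraries were scaled to the sum of their 21-nt and 22-nt reads, and the change of tRNA at 22 nt (0.19) did not pass.

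Of the 28 class values, 23 passed limma at an adjusted p of 0.05 (82.1%), 21 higher (75%) and 2 lower (7.14%) on MS-N. The 2 that fell were pseudogene reads, at 371 ± 15.9 rpm on MS-N and 438 ± 29.6 rpm on MS for 21 nt, and at 544 ± 26.5 rpm on MS-N and 627 ± 37.0 rpm on MS for 22 nt. The 22-nt fall did not pass without replicate 1 on MS-N or replicate 1 on MS. Transposon reads did not pass in the main fit. At 22 nt they were 16964, 18116 and 17548 rpm on MS-N, against 20289.7, 14923 and 13994 rpm on MS. Intergenic reads of 22 nt, the largest class at this length, also overlapped, at 43641, 43047 and 42964 rpm on MS-N and 26469, 66132 and 57302 rpm on MS. The MS-N libraries agreed closely there and the MS libraries did not. Without replicate 1 on MS, 22-nt intergenic reads passed as a fall (log2 -0.51), and 22-nt transposon (0.28) and tRNA reads (0.24) passed as rises. Without replicate 2 on MS, 21-nt transposon reads passed as a fall (-0.47). Since the summed reads themselves rose, the split depended on the scaling. With libraries scaled to the sum of their 21-nt and 22-nt reads, 13 classes were higher and 6 lower among 19 calls. With libraries scaled to their 21-nt microRNA reads the majority turned, with 9 higher and 13 lower among 22 calls. Under both scalings transposon reads of either length and 22-nt intergenic reads passed as falls. Scaled to the sum, the log2 changes were -0.96 for 21-nt transposon, -0.51 for 22-nt transposon and -0.73 for 22-nt intergenic reads. Scaled to microRNA they were -1.25, -0.80 and -1.02 in the same order.

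**Figure D1:**
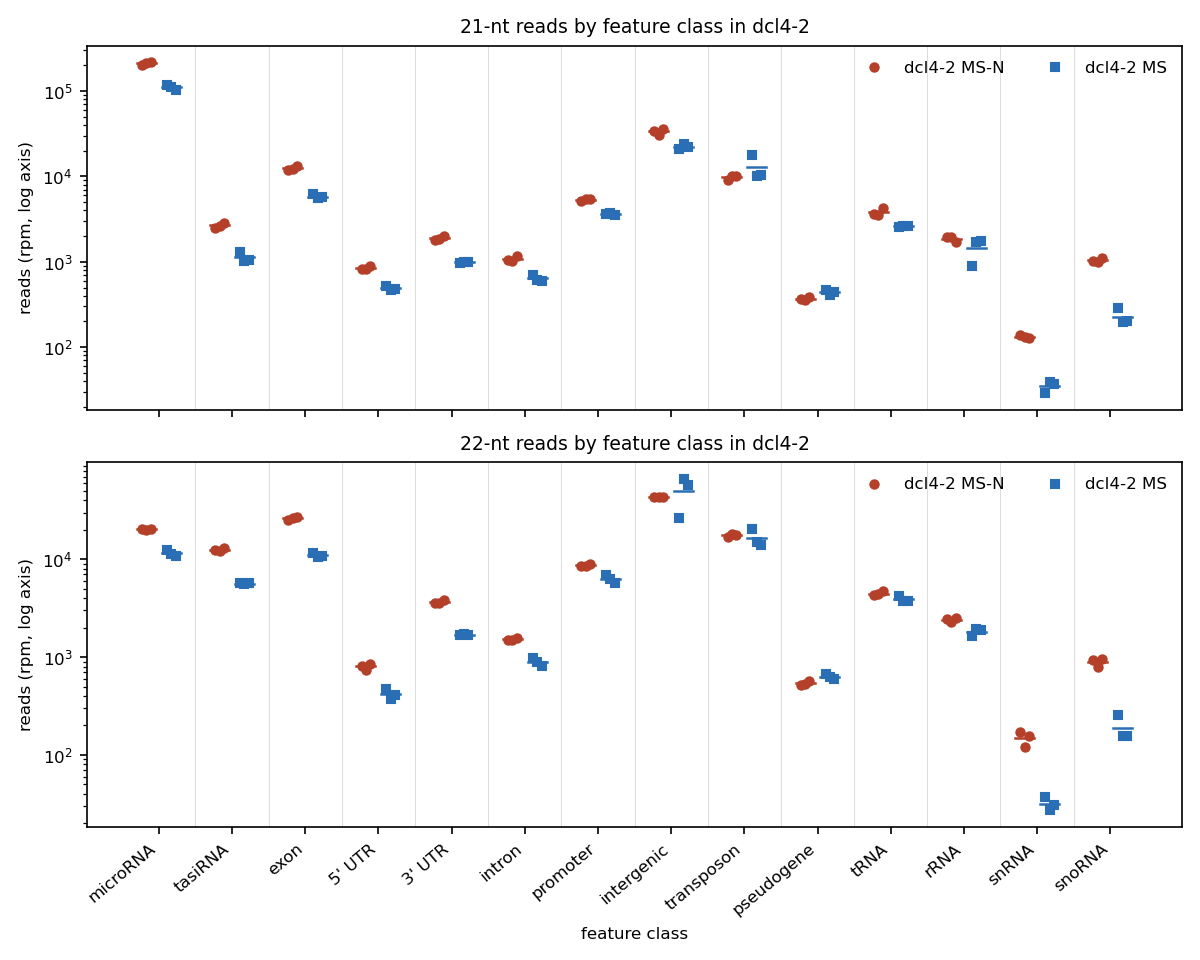
Reads of 21 nt (top) and 22 nt (bottom) in each feature class, in rpm on a log axis, with 1 point per library and a bar at the mean of the 3 libraries of dcl4-2 on MS-N (circles) and on MS (squares). Exon, tasiRNA, microRNA, snRNA and snoRNA reads lie higher on MS-N at both lengths with no overlap, while transposon reads and 22-nt intergenic reads overlap.

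Among the gene loci that passed the test, coding genes were more often higher than lower on MS-N and loci annotated as pseudogenes more often lower, while most loci of either kind did not pass. At 21 nt 2549 of 19388 loci passed limma at an adjusted p of 0.05 (13.1%), 1645 higher (8.48%) and 904 lower (4.66%). At 22 nt 3153 of 20151 loci passed (15.6%), 1990 higher (9.88%) and 1163 lower (5.77%). Without a test, the 2 groups did not overlap at 3017 loci that were higher on MS-N (15.6%) and 1575 that were lower (8.12%) at 21 nt, and at 4052 higher (20.1%) and 1692 lower (8.4%) at 22 nt. Protein-coding genes counted 1848 higher and 447 lower among 15601 tested at 22 nt, with a median log2 change of 0.49. Pseudogene loci counted 43 higher and 593 lower among 3673, with a median of -0.36. The median over all loci was 0.28 at 21 nt and 0.32 at 22 nt. Trimmed-mean scaling of the libraries moved these medians to 0.06 and 0.05 and turned the split to 1046 higher against 1299 lower at 21 nt and to 1105 higher against 1759 lower at 22 nt. Under this scaling coding genes counted 1036 higher and 619 lower at 22 nt, and pseudogene loci 9 higher and 974 lower. With microRNA-sum scaling 994 loci were higher and 621 lower at 21 nt, and 870 higher and 1665 lower at 22 nt. For loci this scaling used only microRNA genes of the same length with recovered library values. It left out 28 abundant microRNA genes at 21 nt and 6 at 22 nt, MIR159b among them at both lengths. It is therefore not the scaling of classes to all 21-nt microRNA reads. A fit of the dcl4-2 libraries alone called 867 higher and 532 lower at 21 nt, and 1304 higher and 778 lower at 22 nt. The authors' deposited table called 546 loci higher (5.28%) and 433 lower (4.19%) among 10341 with a deposited test at 21 nt (9.47% in all), and 1002 higher (8.38%) and 813 lower (6.8%) among 11960 at 22 nt (15.2% in all). Of these calls 97.4, 99.1, 98.7 and 98.6% were also called here, in that order, and 0 in the opposite direction.

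All tested genes of miR399 (5) and miR395 (6) fell at 21 nt on MS-N, with log2 changes from -6.65 to -2.28 and from -6.10 to -3.97. At 22 nt none of the 6 miR395 genes passed (0 of 6, log2 from -1.22 to -0.53). MIR399b (AT1G63005), whose microRNA targets the phosphate regulator PHO2, had 6.59, 6.94 and 6.88 normalized reads of 21 nt on MS-N, against 909, 514 and 1025 on MS, 120-fold lower with a log2 change of -6.65 (limma, adjusted p = 4.9e-28). MIR395b, whose microRNA targets ATP sulfurylases and a sulfate transporter, had 5.49, 5.79 and 8.25 on MS-N, against 642, 448 and 458 on MS, 79.3-fold lower (log2 -6.10, limma, adjusted p = 2.93e-23). In both genes every MS-N library stood below every MS library by a wide margin. MIR395f was 74.8-fold lower and MIR395a 18.7-fold lower. MIR395b and MIR395c had equal values, as had MIR395a and MIR395e, so their reads were not told apart.

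Of the miR399 genes 5 of 6 fell at 22 nt, and MIR399b did not pass. At MIR399a (AT1G29265) most reads were of 22 nt. MIR399a had 32.3, 21.4 and 5.54 normalized 22-nt reads on MS-N, against 316, 1853 and 3147 on MS, 89.6-fold lower (log2 -6.18, limma, adjusted p = 3.35e-15). The MS libraries spread widely, and the lowest of them was above all MS-N libraries. At 21 nt MIR399a had 0 reads in each MS-N library, against 49.8, 7.81 and 54.5 on MS, at least 30.9-fold lower with the MS-N group set to a floor of 3 reads.

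Genes of miR398 and miR827, which follow copper and phosphate, also fell at 21 nt. The authors' deposited table gave MIR398c a mean of 2160 normalized 21-nt reads on MS-N and 13568 on MS, 6.28-fold lower, with a log2 ratio of -2.65 and an adjusted p of 1.80e-20. MIR398a had 158, 183 and 179 on MS-N, against 381, 276 and 474 on MS, 2.18-fold lower (limma, adjusted p = 0.000328). MIR827 had 7.69, 12.7 and 11 on MS-N, against 44.5, 36.8 and 44.0 on MS, 3.99-fold lower (limma, adjusted p = 0.000205). Neither MIR398a nor MIR827 overlapped between the groups.

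Of the microRNA families known to fall in Arabidopsis under low nitrogen (miR169, 171, 395, 397, 398, 399, 408, 827 and 857), 30 genes were tested at 21 nt, and 14 fell, 1 rose and 15 did not pass, with a median log2 change of -1.28. At 22 nt 13 of 33 fell, 1 rose and 19 did not pass, with a median of -1.34. Under trimmed-mean scaling 18 and 15 fell. Of all microRNA genes tested, 31.5% rose and 26.6% fell at 21 nt, and 31.2% rose and 18.8% fell at 22 nt. The gene that rose was MIR169f at both lengths. It had 1428, 1543 and 1610.4 normalized 21-nt reads on MS-N, against 252, 257 and 250 on MS, 6.04-fold higher (log2 2.59, limma, adjusted p = 2.28e-19), and 22.6-fold more 22-nt reads. Of the other genes of the family, MIR169a was the one that fell at 21 nt, and 9 did not pass. At 22 nt 6 fell and 6 did not pass. MIR169b had 6.69, 2.38 and 4.16 normalized 22-nt reads on MS-N, against 61.4, 74.1 and 108 on MS (18.4-fold), while its 21-nt change was -1.23 on the log2 scale and did not pass. MIR169a had 16.2 ± 4.53 normalized 21-nt reads on MS-N and 49.2 ± 14.5 on MS (3.03-fold). MIR169d, with the same mature letters as miR169f-5p, fell 18.5-fold at 22 nt, with 5.58, 0 and 0 on MS-N and 18.4, 19.5 and 65.4 on MS, and its 21-nt change of 0.66 did not pass. The genes of miR169, whose targets are NF-YA transcription factors, therefore moved both ways.

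The miR156 genes, whose microRNA delays the change to adult growth, also moved both ways. MIR156f had 141, 171 and 179 normalized 21-nt reads on MS-N, against 1985, 2424 and 739 on MS, 10.5-fold lower (log2 -3.22, limma, adjusted p = 2e-17), a larger fall than in Col-0 (limma interaction -1.38, adjusted p = 0.0401, and 0.0579 with microRNA-sum scaling). MIR156g had 107, 96.0 and 142 on MS-N, against 6.36, 8.92 and 3.48 on MS, 18.4-fold higher (log2 4.05, limma, adjusted p = 1.64e-13). The groups of neither gene overlapped. MIR156h was 16-fold higher and MIR157d 17-fold lower.

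Of 5 tested genes of miR172, which acts against AP2-like repressors of flowering, 4 rose at 21 nt, and MIR172a did not pass (log2 -0.54). At 22 nt 3 were tested and 0 passed, with log2 changes from -1.08 to 0.94. MIR172e had 130, 134 and 136 normalized reads on MS-N, against 17, 23.4 and 19.7 on MS, 6.66-fold higher (log2 2.69, limma, adjusted p = 3.95e-10). MIR172b was 4.82-fold, MIR172c 8.73-fold and MIR172d 10.0-fold higher. The miR164 genes, whose microRNA targets NAC transcription factors, moved both ways at 21 nt, with MIR164a higher (log2 2.15) and MIR164c lower (-1.74). MIR164b had 607, 689 and 759 on MS-N, against 163, 155 and 84.6 on MS (5.10-fold).

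Of the families known to rise under low nitrogen (miR160, 780, 826, 842 and 846), 3 of 4 tested genes rose at 21 nt with a median log2 change of 0.92, and 3 of 5 rose at 22 nt with a median of 1.37. The share that rose over all tested microRNA genes was 31.5% at 21 nt and 31.2% at 22 nt. MIR842 had 194, 231 and 232 normalized 21-nt reads on MS-N, against 37.1, 35.7 and 9.27 on MS, 8.02-fold higher (log2 3.18, limma, adjusted p = 1.37e-11). MIR846, which lies beside it, had 609, 669 and 639 normalized 22-nt reads on MS-N, against 80.9, 68.9 and 81.4 on MS, 8.29-fold higher (log2 3.04, limma, adjusted p = 4.72e-19). The authors' deposited table gave MIR846 a log2 ratio of 2.64 at 21 nt. MIR160a and MIR160c passed at 21 nt although their groups overlapped, and without library 3 of dcl4-2 on MS their log2 changes were 0.12 and 0.32 and did not pass. Neither passed without library 3 on MS-N, nor MIR160a without library 1 on MS-N. Under trimmed-mean scaling, in the fit of the dcl4-2 libraries alone and with a pseudocount of 0.1, 1 of the 4 genes rose at 21 nt.

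Among genes of the families that trigger secondary siRNAs, at 21 nt 3 of 7 rose, 1 fell and 3 did not pass (median 0.31), and at 22 nt 4 of 10 rose, 1 fell and 5 did not pass (median 0.01). Since 31.5% of all tested microRNA genes rose at 21 nt and 31.2% at 22 nt, these counts show no rise particular to the trigger families. A fit of the dcl4-2 libraries alone left 1 rise at 21 nt, as did a pseudocount of 0.1, and trimmed-mean scaling gave 4 rises and 3 falls at 22 nt. MIR168a, whose microRNA targets AGO1, had 1607, 1856 and 2081 normalized 22-nt reads on MS-N, against 609, 563 and 883 on MS, 2.70-fold higher, and this rise was larger than in Col-0 by 0.80 on the log2 scale (limma interaction, adjusted p = 0.0307), a difference that did not pass under either other scaling. Both mature forms of MIR168a are annotated with 21 nt, and at 21 nt its log2 change of 0.18 did not pass. MIR173, the trigger of TAS1 and TAS2 tasiRNAs, had 293, 457 and 443 normalized 22-nt reads on MS-N, against 124, 147 and 95.4 on MS (3.26-fold). At 21 nt 5 of the 12 genes listed were not tested. Among the tested genes MIR400 fell, with 297, 257 and 283 normalized 21-nt reads on MS-N, against 1390.1, 1276 and 1314 on MS, 4.76-fold lower (log2 -2.25, limma, adjusted p = 2.35e-16). Of the untested genes, MIR393b had deposited 21-nt means of 3711 on MS-N and 9569 on MS in the authors' table, with a log2 ratio of -1.37 and a deposited adjusted p of 1.29e-19. MIR161 held the highest deposited 21-nt mean in dcl4-2 on both media, 213355 on MS-N and 206940 on MS, with a log2 ratio of 0.04 in the authors' deposited table.

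MIR845b, a microRNA directed at retrotransposons, had 269, 269 and 180 normalized 22-nt reads on MS-N, against 15.4, 15.4 and 24.6 on MS, 12.9-fold higher (log2 3.63), and its rise exceeded that in Col-0 by 2.01 on the log2 scale (limma interaction, adjusted p = 0.00399). MIR845a rose at 21 nt in the authors' deposited table, with means of 27893 on MS-N and 4416 on MS and a log2 ratio of 2.66. MIR167d, from a family that targets auxin response factors, had 21.2, 26.2 and 45.7 normalized 22-nt reads on MS-N, against 353, 375 and 346 on MS (11.5-fold lower). Over all microRNA genes 39 rose and 33 fell among 124 tested at 21 nt, with a median log2 change of -0.14, and 43 rose and 26 fell among 138 at 22 nt, with a median of 0.20. Trimmed-mean scaling gave 28 rises and 43 falls at 21 nt and 32 and 34 at 22 nt. The rise of the microRNA class by 1.89-fold thus stood beside falls of many single genes. Abundant genes that the table left untested here include MIR159b, with deposited 21-nt means of 145972 on MS-N and 48883 on MS in the authors' table, and MIR403, with 50623 on MS-N and 14390 on MS.

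**Figure D2:**
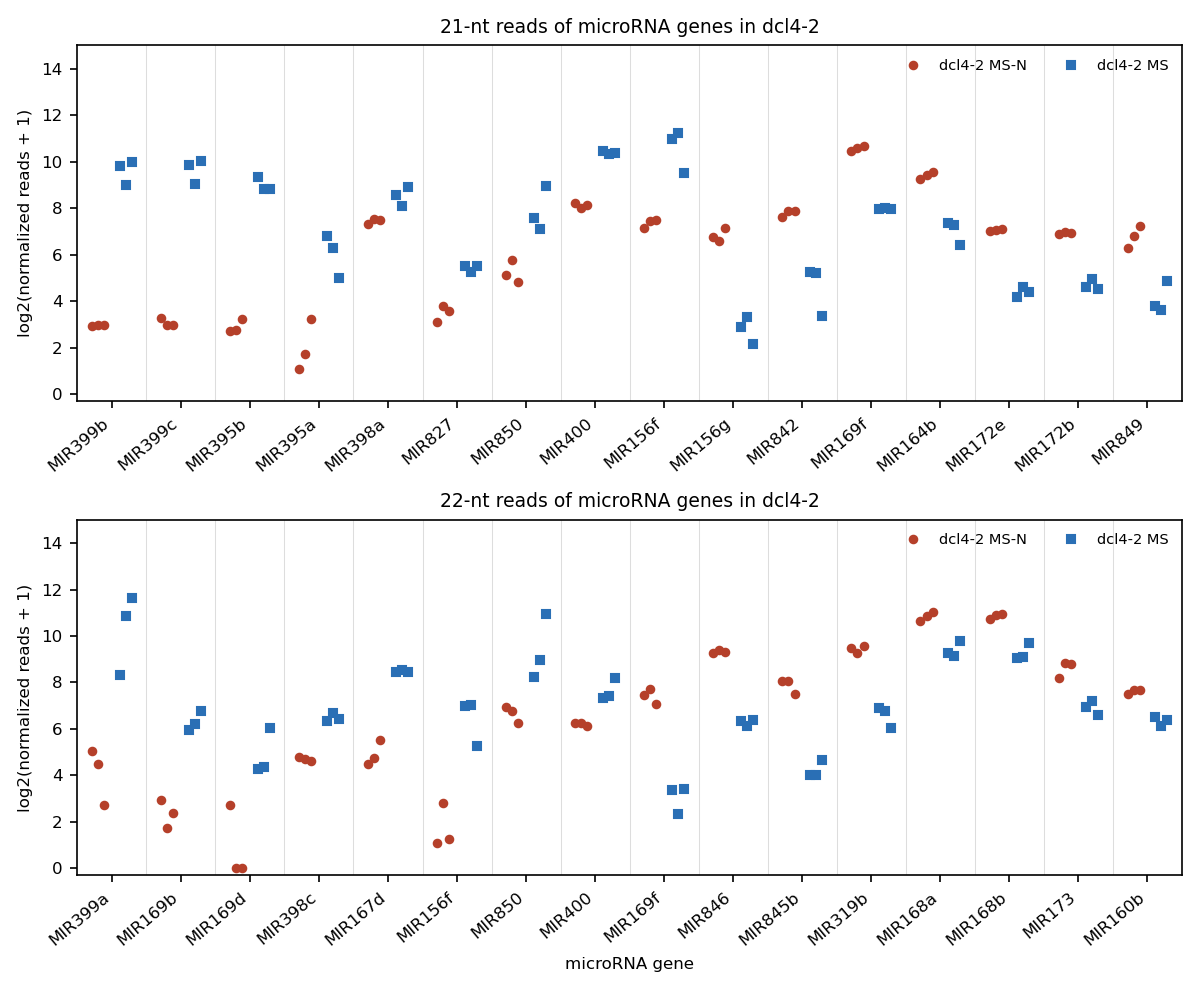
Normalized reads of microRNA genes at 21 nt (top) and 22 nt (bottom) on the scale log2(value + 1), with 1 point per recovered library of dcl4-2 on MS-N (circles) and on MS (squares). MIR399, MIR395 and MIR156f genes lie lower on MS-N by several log2 units, while MIR156g, MIR842, MIR169f, MIR172e, MIR846 and MIR845b lie higher.

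Among genes whose messenger RNAs these microRNAs target, more rose than fell in small RNA, with rises at targets of miR169, miR172, miR395, miR398 and miR399. At 21 nt 10 of 35 target genes rose, 1 fell and 24 did not pass (median log2 change 0.54, against 0.28 over all loci), and at 22 nt 11 of 34 rose, 3 fell and 20 did not pass (median 0.59, against 0.32 over all loci). Over all loci 8.48% rose and 4.66% fell at 21 nt, and 9.88% rose and 5.77% fell at 22 nt. The counts of each list that holds no microRNA genes are to be read against these shares. With microRNA-sum scaling 6 targets rose and 1 fell at 21 nt, and 6 rose and 5 fell at 22 nt. PHO2 (AT2G33770), a ubiquitin-conjugating enzyme that limits phosphate loading, had 58.2, 47.4 and 53.6 normalized 21-nt reads on MS-N, against 3.18, 1.12 and 1.16 on MS, 29.2-fold higher (log2 4.33, limma, adjusted p = 1.91e-14). At 22 nt it had 58, 73.7 and 65.1 on MS-N, against 6.14, 5.14 and 5.36 on MS (11.8-fold). PHO2 reads thus rose at both lengths while the reads of MIR399 genes fell.

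NF-YA2 (AT3G05690), a subunit of the CCAAT-binding factor and a target of miR169, had 81.4, 63.0 and 61.0 normalized 22-nt reads on MS-N, against 0, 0 and 2.14 on MS (log2 5.56, limma, adjusted p = 1.95e-10). In Col-0 its 22-nt reads were few on both media, and the rise in dcl4-2 exceeded that in Col-0 by 4.44 on the log2 scale (limma interaction, adjusted p = 0.000676). NF-YA3 and NF-YA10 also passed, with lower levels. TOE1 (AT2G28550), an AP2-like repressor of flowering and a target of miR172, had 37.9, 26.2 and 48.5 normalized 22-nt reads on MS-N, against 2.05, 3.09 and 0 on MS, 21.9-fold higher, with an excess over Col-0 of 3.76 (limma interaction, adjusted p = 0.00431). CSD1, a copper-zinc superoxide dismutase and target of miR398, had 12.3, 9.52 and 9.70 on MS-N, against 1.02, 2.06 and 0 on MS, at 22 nt. APS4, an ATP sulfurylase and target of miR395, had 5.49, 30.1 and 13.8 normalized 21-nt reads on MS-N, against 1.06, 1.12 and 0 on MS.

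The targets that fell were TCP2 and TCP4, leaf growth regulators targeted by miR319, and HAM2, a meristem regulator targeted by miR171. TCP2 had 14.5, 10.7 and 20.8 normalized 22-nt reads on MS-N, against 23.5, 20.6 and 176 on MS. The groups overlapped and 1 MS library stood far above the rest, and without that library the log2 change was -0.54 and did not pass. Neither TCP2, without library 1 or 2 on MS-N, nor TCP4, without library 2 or 3 on MS-N or library 2 or 3 on MS, passed at 22 nt. HAM2 had 12.3, 8.33 and 6.93 on MS-N, against 21.5, 27.8 and 22.5 on MS, 2.61-fold lower (limma, adjusted p = 0.013), a call lost without library 3 on MS-N or library 2 on MS.

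Nitrate reductase genes and SMXL genes were listed because the study of these same libraries is known for them as sources of 22-nt siRNA. Their changes are therefore no independent support for that role. They behaved differently from each other. NIA2 (AT1G37130), the main nitrate reductase, held 13.7% of the summed 22-nt column of dcl4-2 on MS-N and 0.0659% of that on MS, in the authors' deposited means. Its deposited means were 45734 normalized 22-nt reads on MS-N and 166 on MS, and 8383 and 50.3 at 21 nt on MS-N and MS, so 84.5% of its reads were of 22 nt on MS-N and 76.8% on MS. The deposited log2 ratios were 8.10 at 22 nt and 7.39 at 21 nt. Library values on MS-N could not be recovered for NIA2 and no test was run here.

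Its paralog NIA1 (AT1G77760) showed no such rise. It had 462, 748 and 581 normalized 22-nt reads on MS-N, against 1091, 2152 and 254 on MS, and the groups overlapped (log2 -0.52, limma, adjusted p = 0.317). The MS libraries spread from the lowest to the highest value, and without library 2 on MS the change turned to 0.15. The fall of NIA1 passed without library 3 on MS (log2 -1.39) and under trimmed-mean (-0.96) and microRNA-sum scaling (-0.98). At 21 nt NIA1 had 85.7, 165 and 122 on MS-N and 506, 299 and 77.6 on MS, also with overlap. NIA1 and NIA2 are related in sequence, and how reads shared between them were counted is not given in the sources used here.

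SMXL4 (AT4G29920) and SMXL5 (AT5G57130), which act in phloem formation, had more 22-nt reads on MS-N. SMXL4 had 995, 307 and 575 normalized 22-nt reads on MS-N, against 66.5, 279 and 199 on MS, 3.45-fold higher (log2 1.85, limma, adjusted p = 0.000847). The lowest MS-N library lay just above the highest MS library. SMXL5 had 61.4, 19.0 and 56.8 on MS-N, against 3.07, 6.17 and 28.9 on MS, 3.59-fold higher with overlap (log2 2.12, limma, adjusted p = 0.00739), and did not pass without library 1 on MS. The excess over Col-0 was 3.52 on the log2 scale for SMXL5 (limma interaction, adjusted p = 0.0109), and for SMXL4 it was 1.49 and did not pass (adjusted p = 0.158). At 21 nt both genes passed narrowly, with adjusted p = 0.0384 for SMXL4 and 0.0317 for SMXL5 in limma, with overlapping groups, and neither passed without library 1 or 3 on MS-N or library 2 on MS, nor SMXL5 without library 1 on MS. Both 21-nt calls were also lost with microRNA-sum scaling, in the fit of the dcl4-2 libraries alone, with a pseudocount of 0.1 and with no variance trend, and that of SMXL4 with trimmed-mean scaling. At 22 nt SMXL5 did not pass with a pseudocount of 0.1, and neither gene passed with no variance trend.

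Other coding genes reached high 22-nt levels on MS-N. UGT71B5 (AT4G15280), a UDP-glycosyltransferase, had 946, 903 and 773 normalized 22-nt reads on MS-N, against 35.8, 65.8 and 12.9 on MS, 22.9-fold higher (log2 4.75, limma, adjusted p = 6.56e-17), an excess over Col-0 of 2.03 (limma interaction, adjusted p = 0.00407). APR1 (AT4G04610), an adenosine phosphosulfate reductase of sulfate assimilation, had 92.6, 26.2 and 63.7 on MS-N, against 0, 0 and 1.07 on MS (log2 5.43, limma, adjusted p = 1.07e-09), an excess over Col-0 of 4.95 (limma interaction, adjusted p = 0.000252). All MS-N libraries of both genes lay above all MS libraries. MYB28 (AT5G61420), an activator of aliphatic glucosinolate genes, went the other way, with 92.6, 63.0 and 73.4 on MS-N, against 242, 213 and 467 on MS, 4.02-fold lower (log2 -1.92, limma, adjusted p = 0.000225; interaction -2.20, adjusted p = 0.0174). Among the sulfur and glucosinolate genes APR1 rose and MYB28 fell at both lengths (at 21 nt MYB28 did not pass with a pseudocount of 0.1), and the other 2 tested at 21 nt and 3 tested at 22 nt did not pass.

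**Figure D3:**
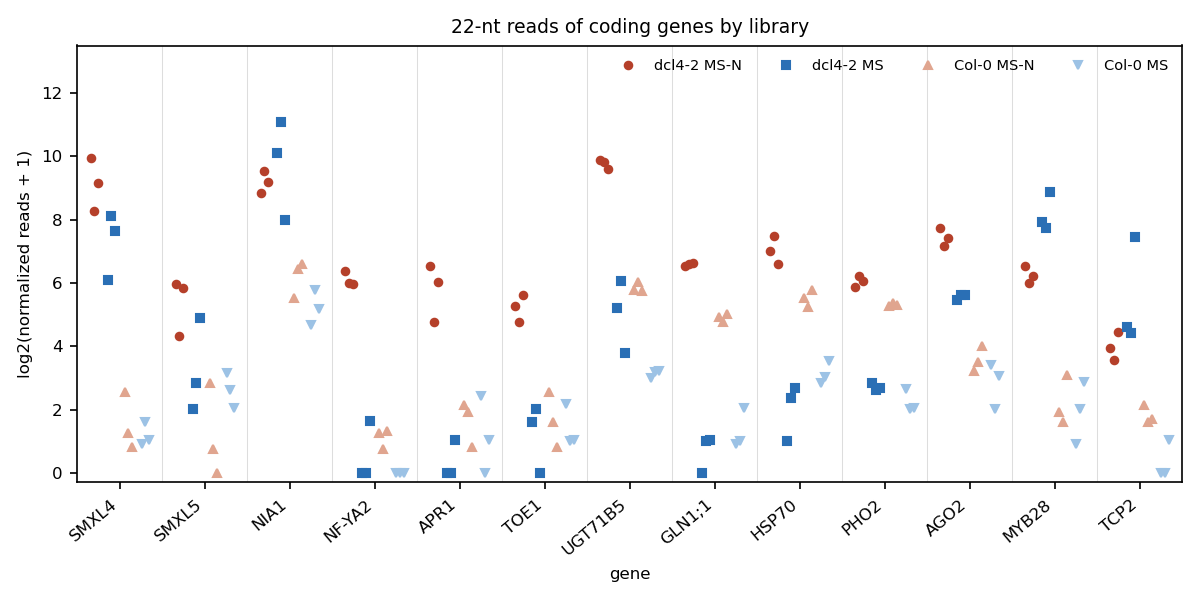
Normalized 22-nt reads of 13 coding genes on the scale log2(value + 1), with 1 point per recovered library in dcl4-2 on MS-N, dcl4-2 on MS, Col-0 on MS-N and Col-0 on MS. NF-YA2, APR1 and TOE1 are highest in the 3 libraries of dcl4-2 on MS-N, GLN1;1, HSP70, PHO2 and UGT71B5 are higher on MS-N in both genotypes, and NIA1 overlaps between the media in dcl4-2.

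The share of 22-nt reads differed widely among coding genes. Summed over the 3 libraries on MS-N, 22-nt reads were 84.7% of the 21-nt and 22-nt reads of SMXL4 (exact 95% interval 83 to 86.3), 82.5% of NIA1 (80.7 to 84.2), 81.2% of APR1 (74.8 to 86.5), 79.2% of UGT71B5 (77.6 to 80.7) and 78.3% of NF-YA2 (72.3 to 83.6). By contrast they were 49.7% of GLN1;1 (45.1 to 54.3), 53.2% of ICL, 50.8% of DOX1 and 49.2% of NRT2.1. Between them lay PHO2 with 54.8%, DUR3 with 58.7% and NF-YA3 with 65.6%. The intervals of the first 5 genes lie above that of GLN1;1, and intervals cover counting error only. AGO2 was far lower, with 8.20% on MS-N and 8.73% on MS, and so was AT1G12290, with 6.44% on MS-N and 2.61% on MS. PAP1 had 18.75% on MS-N. Shares were computed for secondary siRNA sources, known 22-nt sources, microRNA targets, sulfur and glucosinolate genes and the largest 22-nt changes. They do not survey all coding genes. Of these chosen genes 31 had at least 50 reads in each group, and 28 of them had overlapping intervals on the media. Among the 28 were SMXL4, at 84.7% on MS-N and 81.7% on MS, and MYB28, at 85.1% on MS-N and 85.4% on MS. The other 3 had a lower share on MS-N. HAM2 had 31.5% on MS-N and 60.5% on MS, HAM1 had 38.3% on MS-N and 60.4% on MS, and AT5G43740 had 80.5% on MS-N and 85.1% on MS. The photosynthesis gene LHCB1.1 was near the level of GLN1;1, at 52.0% on MS-N and 49.6% on MS.

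**Figure D4:**
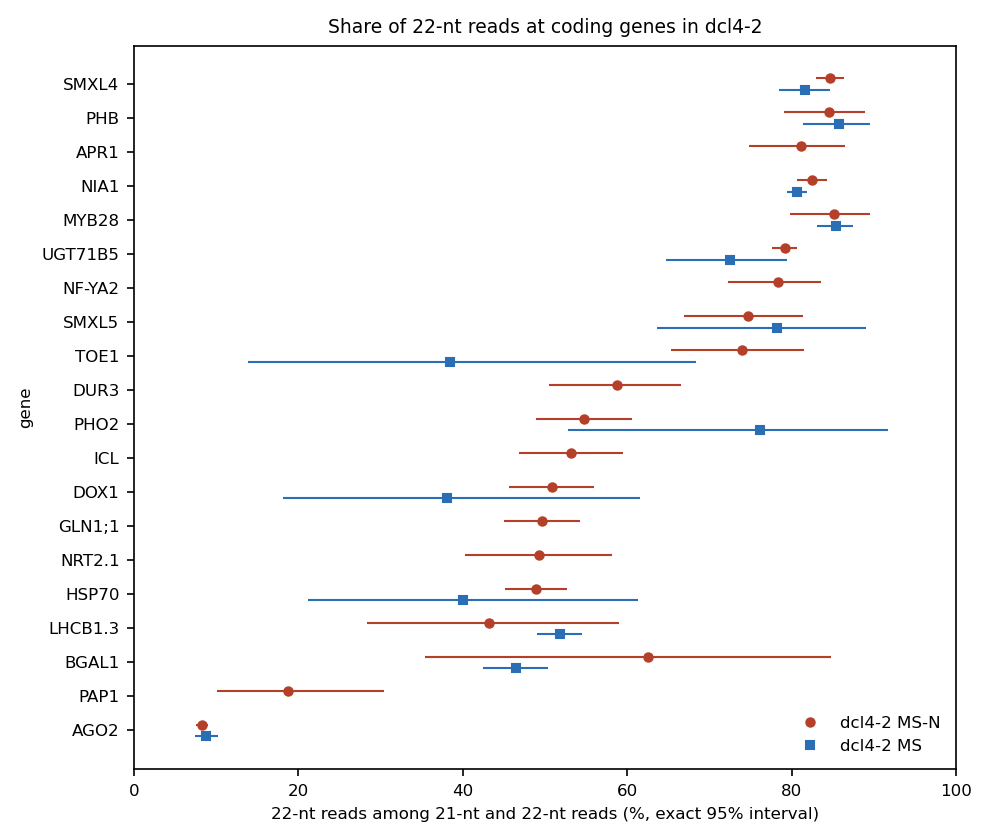
Share of 22-nt reads among the 21-nt and 22-nt reads of 20 coding genes in dcl4-2 on MS-N (circles) and on MS (squares), in percent, summed over 3 libraries with exact 95% intervals for counting error; groups with under 10 reads are left out. SMXL4, PHB, APR1, NIA1, MYB28, UGT71B5, NF-YA2 and SMXL5 lie above 70%, GLN1;1, NRT2.1, DOX1 and ICL near the middle of the axis, and AGO2 at 8.20% and 8.73%.

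Nitrogen genes changed in both directions. Transporters such as NRT2.1 and the 4 cytosolic glutamine synthetases GLN1;1 to GLN1;4 rose, and the plastid enzymes GLN2 and GLU1 and the asparagine synthetase ASN1 fell at both lengths. Among 30 nitrogen genes tested at 21 nt 10 rose, 5 fell and 15 did not pass, with a median log2 change of 0.65, and among 31 at 22 nt 11 rose, 8 fell and 12 did not pass, with a median of 1.06. Trimmed-mean scaling gave 9 rises and 11 falls at 21 nt and 9 and 10 at 22 nt. NIR1, the plastid nitrite reductase, rose at 22 nt (log2 1.61) and did not pass at 21 nt, and the transporters AMT1;1, AMT2;1 and NRT1.5 passed at neither length. NRT2.1 (AT1G08090), the main high-affinity nitrate transporter, had 22.0, 25.5 and 31.6 normalized 21-nt reads on MS-N and 0 in each MS library, at least 23.7-fold higher (limma, adjusted p = 1.26e-10). At 22 nt it had 15.6, 35.7 and 26.3 on MS-N and 0 on MS. NRT2.2, its neighbour and near relative, rose at both lengths at lower levels, with at least 7.43-fold more 21-nt reads on MS-N. The ammonium transporter AMT1;3 had 12.3, 19.0 and 16.6 normalized 22-nt reads on MS-N and 0 on MS, and the urea transporter DUR3 had 16.7, 46.4 and 51.3 on MS-N, against 0, 2.06 and 0 on MS.

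GLN1;1 (AT5G37600), a cytosolic glutamine synthetase, had 92.3, 85.6 and 106 normalized 21-nt reads on MS-N, against 2.12, 1.12 and 4.63 on MS, 36.1-fold higher (log2 4.83, limma, adjusted p = 2.5e-13). At 22 nt it had 91.5, 95.2 and 97.0 on MS-N, against 0, 1.03 and 1.07 on MS, a rise that exceeded that in Col-0 by 2.31 on the log2 scale (limma interaction, adjusted p = 0.023, and 0.066 and 0.0783 with trimmed-mean and microRNA-sum scaling). GLN1;3 and GLN1;4 rose at both lengths. The plastid enzyme GLN2 fell, with 7.69, 20.8 and 16.5 normalized 21-nt reads on MS-N, against 50.9, 46.8 and 40.6 on MS (3.07-fold, limma, adjusted p = 0.000608), as did GLU1, the ferredoxin-dependent glutamate synthase (2.83-fold). ASN1 (AT3G47340), an asparagine synthetase repressed by sugar, had 4.39, 1.16 and 0 normalized 21-nt reads on MS-N, against 158, 171 and 89.2 on MS, 75.3-fold lower (log2 -5.90, limma, adjusted p = 3.05e-18). LBD37 and LBD39, repressors of nitrate-responsive genes, fell as well, LBD37 at 21 nt only with library 2 of either group in the fit. No library of these genes overlapped between the groups.

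Outside the lists, the largest rises at 21 nt included ICL (AT3G21720), isocitrate lyase of the glyoxylate cycle, with 48.3, 53.2 and 38.5 normalized reads on MS-N and 0 in each MS library, at least 42.0-fold higher. The chaperone gene HSP70 had 121, 186 and 106 on MS-N, against 6.36, 3.35 and 6.95 on MS (24.8-fold). THAS1, thalianol synthase of triterpene metabolism, was at least 21.5-fold higher. BGAL1, a beta-galactosidase, fell to 4.39, 2.31 and 0 normalized 21-nt reads on MS-N, against 110, 105 and 163 on MS (56.4-fold lower). At 22 nt DOX1, an alpha-dioxygenase, rose 28.6-fold, and DRT112, which encodes plastocyanin, fell 39.0-fold to 1.25 ± 1.19 on MS-N, against 49.0 ± 10.8 on MS. DELTA-TIP, a vacuolar water channel, had 1.12, 0 and 0 on MS-N, against 33.8, 36.0 and 46.1 on MS.

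Every tested nuclear photosynthesis gene lost small RNA on MS-N. All 24 fell at 21 nt and all 24 at 22 nt, where 4.66% and 5.77% of all loci fell, with median log2 changes of -3.84 and -3.54, and all 24 also fell under trimmed-mean and microRNA-sum scaling. LHCB1.1 (AT1G29920), a light-harvesting protein of photosystem II, had 0, 5.79 and 9.63 normalized 21-nt reads on MS-N, against 143, 125 and 198 on MS, 30.2-fold lower (log2 -5.20, limma, adjusted p = 8.09e-16). CA1 (AT3G01500), a carbonic anhydrase, had 0 22-nt reads in each MS-N library, against 33.8, 38.1 and 45.0 on MS, at least 31.7-fold lower. RCA, the activase of Rubisco, fell least at 21 nt, with 19.8, 27.8 and 24.8 on MS-N, against 106, 63.6 and 139 on MS (4.27-fold). Genes of the LHCB1 group are near-identical, and reads could be shared among them. In Col-0 all 24 fell too, and at 22 nt the fall was smaller in dcl4-2 for 10 genes by the interaction test, among them RBCS1A, with log2 changes of -2.74 in dcl4-2 and -5.35 in Col-0 (difference 2.61, limma, adjusted p = 0.000465). Over all loci 2.09% differed at 22 nt. The 10 genes became 8 with trimmed-mean scaling and stayed 10 with microRNA-sum scaling, and at 21 nt 2 of the 24 differed. With no variance trend in limma only 2 of all loci differed at 22 nt.

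Loci of the chloroplast genome fell at 21 nt and were mixed at 22 nt. At 21 nt 63 of 87 fell, 0 rose and 24 did not pass, with a median log2 change of -1.54. At 22 nt 35 fell, 7 rose and 45 did not pass, with a median of -0.52, where in Col-0 73 of 87 fell and 0 rose. For 42 of the 87 loci the 22-nt change in dcl4-2 was higher than that in Col-0 by the interaction test, against 2.09% of all loci that differed, and this count was 22 with trimmed-mean and 26 with microRNA-sum scaling. ATCG00580 had 129, 97.5 and 98.4 normalized 22-nt reads on MS-N, against 54.3, 63.8 and 73.9 on MS, with log2 changes of 0.75 in dcl4-2 and -2.02 in Col-0 (difference 2.77, limma, adjusted p = 5.51e-07), and its rise did not pass under trimmed-mean or microRNA-sum scaling, nor without library 1 on MS-N or library 1 or 2 on MS. Under trimmed-mean scaling 2 chloroplast loci rose and 44 fell at 22 nt. Mitochondrial loci had 22 rises and 3 falls among 116 at 21 nt (median 0.43, against 0.28 over all loci) and 29 rises and 5 falls among 118 at 22 nt (median 0.41, against 0.32). Over all loci 8.48% rose and 4.66% fell at 21 nt, and 9.88% rose and 5.77% fell at 22 nt. Trimmed-mean scaling left 11 rises and 4 falls at 21 nt and 18 and 8 at 22 nt. ATMG01360 had 223, 206 and 211 normalized 22-nt reads on MS-N, against 45.0, 53.5 and 56.8 on MS (4.12-fold). These organelle and photosynthesis reads moved with the medium beside every group of genes above, and their part in the other results was not tested.

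Most tested anthocyanin genes gained small RNA on MS-N. At 21 nt 8 of 11 tested genes rose, 0 fell and 3 did not pass (median log2 change 1.97, where 8.48% of all loci rose), and at 22 nt 7 of 12 rose, 0 fell and 5 did not pass (median 2.08, where 9.88% of all loci rose). Of the 17 genes listed 6 were not tested at 21 nt and 5 at 22 nt. A gene with 0 reads on MS, such as CHS or DFR at 21 nt, could pass the read filter through MS-N libraries alone. These shares and medians therefore lean towards rises and do not stand for the whole list. With microRNA-sum scaling, and in the fit of the dcl4-2 libraries alone, 4 rose at 21 nt. CHS (AT5G13930), chalcone synthase at the entry of flavonoid synthesis, had 26.4, 24.3 and 23.4 normalized 21-nt reads on MS-N and 0 in each MS library, at least 22.2-fold higher (limma, adjusted p = 1.11e-09). PAP1 (AT1G56650), a MYB activator of the pathway and a source of TAS4-dependent siRNA, had 20.9, 24.3 and 16.5 on MS-N, against 2.12, 0 and 0 on MS. DFR, dihydroflavonol reductase, had 13.2, 9.26 and 9.63 on MS-N and 0 on MS. No library of these 3 genes overlapped. MIR828, which triggers TAS4, had 4.46, 7.14 and 6.93 normalized 22-nt reads on MS-N and 0 on MS, at least 5.93-fold higher.

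Known sources of secondary siRNAs and targets of their triggers rose in part. At 21 nt 11 of 38 rose, 0 fell and 27 did not pass (median log2 change 0.59, with 8.48% of all loci higher), and at 22 nt 14 rose, 1 fell and 23 did not pass (median 0.75). Under trimmed-mean scaling 8 rose and 2 fell at 21 nt and 5 rose and 1 fell at 22 nt, so most of the 22-nt rises depended on the scaling. The fit of the dcl4-2 libraries alone gave 5 rises at 21 nt and 9 at 22 nt. AGO2 (AT1G31280), an Argonaute of antiviral defence, had 1890.2, 1983 and 1925 normalized 21-nt reads on MS-N, against 428, 444 and 694 on MS, 3.70-fold higher (log2 1.92, limma, adjusted p = 1.91e-14). AFB2, an auxin receptor gene, had 77.0, 64.2 and 79.0 normalized 22-nt reads on MS-N, against 25.6, 31.9 and 45.0 on MS (2.15-fold). PHB, a class III HD-ZIP gene, had 79.2, 72.6 and 81.8 on MS-N and 96.2, 106 and 67.5 on MS at 22 nt, with overlap. The gene that fell was AT5G43740, with 326, 305 and 421 on MS-N, against 497, 532 and 655 on MS (1.60-fold, limma, adjusted p = 0.00539).

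Among RNA silencing genes 3 of 18 rose at 21 nt (median log2 change 0.53) and 7 of 19 at 22 nt (median 0.97), against 8.48% and 9.88% of all loci, and 0 fell. Under either other scaling 2 rose at each length, and 1 rose at 21 nt in the fit of the dcl4-2 libraries alone. AGO1 (AT1G48410), the main microRNA effector, had 40.6, 52.1 and 52.3 normalized 21-nt reads on MS-N, against 22.3, 10.0 and 32.4 on MS (2.24-fold, limma, adjusted p = 0.00137). DCL2 (AT3G03300), the 22-nt siRNA enzyme, had 2.23, 7.14 and 4.16 normalized 22-nt reads on MS-N, against 0, 0 and 1.07 on MS, and DCL1 had 35.7, 52.3 and 40.2 on MS-N, against 28.7, 24.7 and 8.57 on MS. Both passed narrowly (limma, adjusted p = 0.0235 for DCL2 and 0.027 for DCL1) and neither passed under trimmed-mean scaling. DCL1 did not pass without library 2 or 3 on MS-N or library 3 on MS, DCL2 not without library 2 on MS-N or library 1 or 2 on MS, and DCL4 not without library 3 on MS-N.

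**Figure D5:**
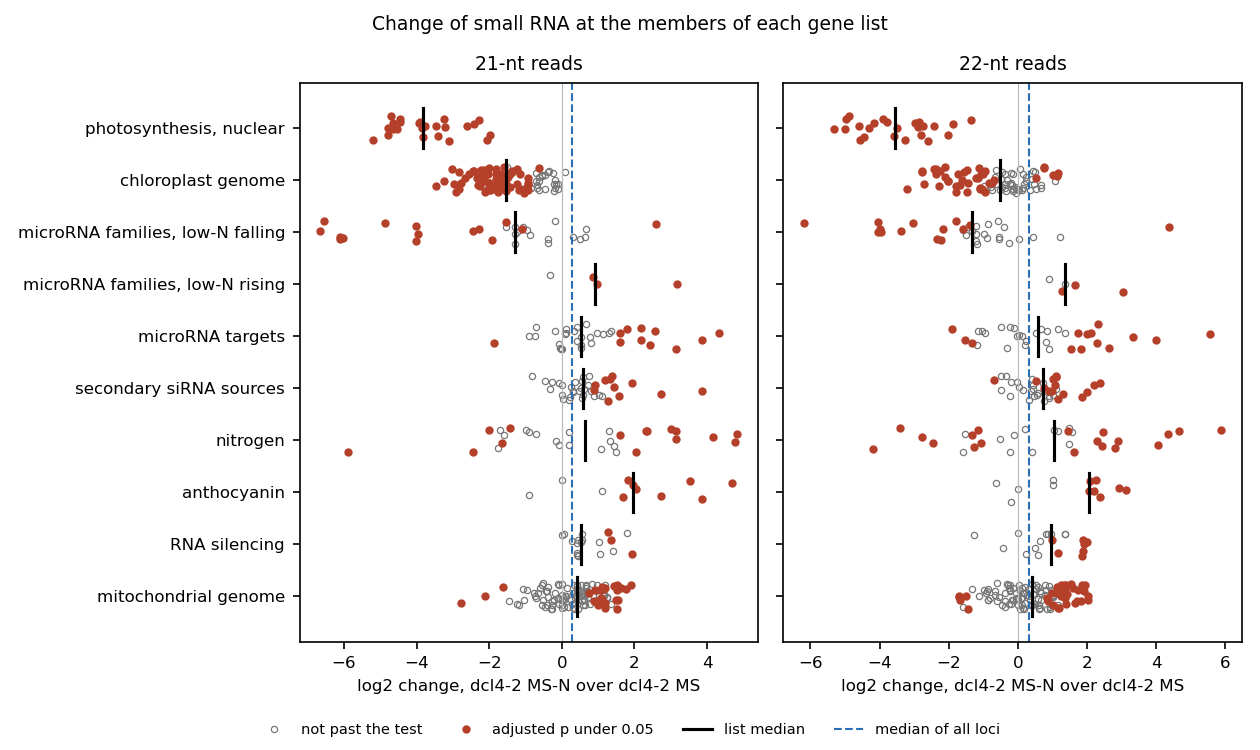
Log2 change of each tested member of 10 gene lists, dcl4-2 on MS-N over dcl4-2 on MS, at 21 nt (left) and 22 nt (right), with filled points for members past limma's adjusted p of 0.05, a bar at the list median and a dashed line at the median of all loci (0.28 and 0.32). All 24 nuclear photosynthesis genes lie below 0, chloroplast loci lie lower at 21 nt than at 22 nt, and anthocyanin genes lie mostly above the dashed line.

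The response in dcl4-2 differed from that in Col-0 at 86 loci at 21 nt (0.444%), at 421 loci at 22 nt (2.09%) and in 15 of the 28 class values (53.6%). The difference was positive at 74 and negative at 12 of these loci at 21 nt, and positive at 362 and negative at 59 at 22 nt. Trimmed-mean scaling turned the majority, with 34 positive and 83 negative at 21 nt and 177 positive and 490 negative at 22 nt, and microRNA-sum scaling gave 193 positive and 14 negative at 21 nt and 220 and 229 at 22 nt. The 21-nt count was 216 without library 3 of dcl4-2 on MS, between 34 and 57 without any 1 library of dcl4-2 on MS-N, and between 1 and 43 without any 1 library of Col-0. The 22-nt count was between 179 and 266 when a single Col-0 library on MS-N was left out, 168 when library 2 of Col-0 on MS was left out and 198 when library 3 of Col-0 on MS was left out. With no variance trend in limma 0 loci passed at 21 nt and 2 at 22 nt, where 2645 and 3188 had an unadjusted p under 0.05.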

How the data were processed

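Small RNA was sequenced in whole seedlings, and files made by the authors were used; raw reads were not analysed here. Per the submitters' processing notes, Bowtie 1.2.2, SAMtools 1.9 and the build TAIR10 were used; the counting rule, the treatment of reads with several matches and the authors' test are not given in the sources used here. The authors deposited a class table in rpm per library, and its steps of 1 read gave the library totals. Gene tables give 1 signal value per locus for each group, headed TPM by the authors. The deposited values turned out to be means over 3 libraries of whole reads, each divided by its library's size factor, and are called normalized reads here. The authors' log2 ratios and the authors' p-values with their adjusted values stand beside it.

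Library values were recovered by splitting each mean into whole reads of 3 libraries, which succeeded for 99.9 to 100% of loci above 0 and in 1 way each. The loci not split are few and abundant, with 87.4% and 80.4% of the 21-nt column sums of dcl4-2 on MS-N and MS, and 43.5% and 22.2% at 22 nt. In all 31 loci at 21 nt and 9 at 22 nt were untested, 28 and 6 of them microRNA genes. The splitting and the fits below were tested on simulated data, with a spread set in advance for the fits. Splits were wrong for 0 loci. The fits found 10% of 2-fold changes at 21 nt and 28% at 22 nt, and 70% and 80% of 4-fold changes. Of the calls, 10 of 147 at 21 nt and 11 of 156 at 22 nt were false. A locus that did not pass can therefore still have changed.

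Tests of loci used limma 3.58.1 (R 4.3.3) with a variance trend on values transformed as log2(value + 1), 1 fit over 4 groups, loci of at least 1 in at least 3 of 12 libraries and Benjamini-Hochberg adjustment over all loci kept; classes on log2(rpm) over 28 values. Folds are ratios of group means, and log2 changes on this scale understate loci with few reads. The filter counts libraries of all groups, so a locus can be kept through 1 group alone. This can tilt list counts towards the group with more reads. A fold against 0 reads uses a floor of 3 reads over the group. Floors and Clopper-Pearson intervals cover counting error only. A count model on recovered reads was not run. Python 3.11.15, NumPy 2.4.6, pandas 2.3.3, SciPy 1.17.1 and matplotlib 3.10.9 were used.

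The genes named were, per length, the 10 largest rises and falls among called loci with groups apart that were not microRNA genes, the 8 largest among microRNA genes, the 10 highest deposited means, known 22-nt sources, DCL4 and up to 6 called members per list and direction; other genes named were chosen after their values were seen. Members and gene lists were chosen with earlier results of these data known, and the known 22-nt sources are genes this study is known for. Replicate numbers of the class table were checked for pairing, and the correlations of same-numbered libraries ran from -0.519 to 0.779 over 18 pairs, 7 of them over 0.1, so libraries were not treated as paired. Names matched the RefSeq annotation of TAIR10.1 for 31722 of 32420 loci. Its genome gave the microRNA sequences and coordinates.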

Additional observations from a re-analysis of the deposited data

Results flagged for a closer look

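Each value here is the log2 change between media in dcl4-2 minus that in Col-0 and was listed because limma's interaction test of this difference passed at an adjusted p of 0.05. Among 22-nt reads of feature classes the difference was 1.03 for exons, 1.05 for snoRNA, 1.02 for tRNA, 0.86 for rRNA, 0.85 for 5' UTRs and 0.67 for snRNA, and it was negative for tasiRNA at -0.34 and transposable elements at -0.54. Among 21-nt reads it was 1.25 for tRNA, 0.93 for snoRNA, 0.88 for intergenic reads, 0.51 for 5' UTRs, 0.51 for 3' UTRs, 0.47 for exons and 0.45 for tasiRNA. Class values are sums over loci and do not show how many loci differed.

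Among coding genes at 22 nt the difference was 4.95 for APR1, 4.44 for NF-YA2, 3.76 for TOE1, 3.52 for SMXL5, 2.63 for HSP70, 2.31 for GLN1;1 and 2.03 for UGT71B5, and it was -2.20 for MYB28 and -3.00 for TCP2. At 21 nt it was 2.17 for HSP70 and 2.11 for AT3G09440. AT3G09440 had 175, 213 and 139 normalized 21-nt reads in dcl4-2 on MS-N, against 9.54, 4.46 and 13.9 in dcl4-2 on MS, and the groups lay far apart. Among microRNA genes it was 2.01 for MIR845b and 0.80 for MIR168a at 22 nt and 2.00 for MIR849 at 21 nt. It was negative for MIR156f at 21 nt, at -1.38. Over all microRNA genes it passed as positive for 2 and as negative for 2 at 21 nt, and for 13 and 1 at 22 nt, while trimmed-mean scaling gave 1 and 9 at 21 nt and 2 and 6 at 22 nt. MIR849 had 78.0, 110 and 150 normalized 21-nt reads in dcl4-2 on MS-N, against 12.7, 11.2 and 27.8 in dcl4-2 on MS.

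The organelle loci given here are only those named loci that passed at 22 nt, so their shared direction is no separate result. Every organelle locus that passed at 22 nt had a positive difference, 42 of 87 tested in the chloroplast genome and 12 of 118 in the mitochondrial genome. The difference was 2.77 for ATCG00580, 2.11 for ATCG00900 and for ATCG01240, which had equal values, and 1.7 for ATCG00740. It was 1.58 for ATCG00270, 1.52 for ATCG00280 and 0.88 for ATCG00640, and 2.13 for ATMG00280 and 1.86 for ATMG01360.

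With no variance trend in limma 0 of all loci passed the interaction test at 21 nt and 2 at 22 nt, so most of the locus values listed here did not pass there. Of the 23 values of loci chosen by the naming rule, 17 also passed with trimmed-mean scaling and 20 with microRNA-sum scaling, and 0 turned direction. Those of MIR168a, GLN1;1 and ATCG00640 passed under neither, and those of MIR849, AT3G09440 and HSP70 at 21 nt did not pass with trimmed-mean scaling.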

How the results depend on the processing

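Over 221 reported values, alternatives kept the direction and side of the threshold 2694 times, lost a call 225 times, gained one 16 times and turned the direction 25 times. A fit of the 6 dcl4-2 libraries alone gave 1399 loci at 21 nt and 2082 at 22 nt, and microRNA-sum scaling gave 1615 at 21 nt. Leaving out 1 library gave 1841 to 2265 loci at 21 nt, 2373 to 2697 at 22 nt and 22 to 25 class values. Loci whose response differed from Col-0 numbered 7 at 21 nt and 141 at 22 nt with a pseudocount of 0.1, 0 and 2 with no variance trend in limma (2645 and 3188 at an unadjusted p under 0.05) and 667 at 22 nt with trimmed-mean scaling, and leaving out 1 library gave 1 to 216 and 168 to 579, and 11 to 17 class values. The total of 21-nt reads changed by 0.75 to 0.85 on the log2 scale and that of 22-nt reads by 0.21 to 0.42 without 1 library, and the 22-nt share by -10.3 to -5.95 points; without microRNA these were 0.50 for 21 nt and -3.79 points for the share. With replicate number as a block 23 class values passed, as without it, and 13 differed from Col-0. No paired analysis was possible because recovered libraries of loci carry no replicate number. Scaled to the sum of 21-nt and 22-nt reads, log2 changes turned to -0.029 for intergenic, -0.074 for promoter, -0.21 for rRNA and -0.078 for tRNA reads at 21 nt, and to -0.16 for promoter, -0.22 for rRNA, -0.44 for tRNA and -0.51 for transposon reads at 22 nt. Scaled to 21-nt microRNA, by which 9 class values were higher and 13 lower, they turned to -0.12 for 5' UTR, -0.32 for intergenic, -0.16 for intron, -0.37 for promoter, -0.50 for rRNA and -0.37 for tRNA reads at 21 nt, and to -0.16 for intron, -0.10 for microRNA, -0.45 for promoter, -0.51 for rRNA, -0.73 for tRNA and -0.80 for transposon reads at 22 nt. At 22 nt intergenic reads turned to 0.15 or 0.05 without replicate 2 or 3 of dcl4-2 on MS, MIR161 to 0.031 without library 3 of dcl4-2 on MS-N and 0.030 without library 2 of dcl4-2 on MS, and NIA1 to 0.15 without library 2 of dcl4-2 on MS, where 1 library left out gave NIA1 -1.39 to 0.15. These turns follow the scaling or the library left out; further causes were not tested. Shallower MS-N libraries limit loci with few reads.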
